A study of Mus musculus with 24 samples.

Results

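NK cells sorted from the spleens of mice with advanced RMA lymphoma were compared, over all genes, with NK cells sorted from mice without a tumor. The comparison takes every library labelled RMA late, day 9 after injection (n = 3), and every library labelled control (n = 4), which makes 7 of the 24 libraries of the series. RMA is a mouse T cell lymphoma line that NK cells largely ignore, and it was injected intravenously. Both groups were wild-type C57BL/6J mice, which the study's methods describe as female and 7 to 9 weeks of age unless specified, and the control mice were not injected. Sorted cells were positive for NKp46 or NK1.1 and negative for CD3, CD5, both T cell receptor types and a dead-cell dye. The labels do not say whether a library holds 1 mouse or a pool, though the study counts these groups in mice. Its count for the control group is lower than the number of libraries labelled control.

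Reads from single-end Illumina sequencing of polyadenylated RNA were counted on genes. The totals were 5138651, 10526995, 9617408 and 10562991 in control 1 to 4, and 12427430, 11491734 and 9806287 in RMA late 1 to 3. Levels are given as normalized CPM, which are counts scaled with TMM to a common library total. A floor of 3 counts lay between 0.258 and 0.554 normalized CPM in these libraries, and it covers counting error only. Libraries of a group differed by far more than counting error, with a chi-square per degree of freedom from 26.8 to 51.5 over 9 pairs within the groups. On the first principal component, 32.7% of the variance, control 1 to 4 lay at −97.4, −6.06, −14.7 and −82.1. RMA late 1 to 3 lay at 117, 78.7 and 4.13, so RMA late 3 was nearest to the controls on this component. On the second, 18.4% of the variance, control 1 to 4 lay at 28.9, −78.0, −69.9 and 7.98. There RMA late 1 to 3 lay at −4.98, 27.8 and 88.2, with RMA late 3 beyond all controls.

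NK cells are innate lymphocytes that kill tumor and infected cells with granules of perforin and granzymes, under the control of activating and inhibitory receptors. Resting NK cells are small and seldom divide, and transcription factors such as KLF2 and the FOXO family maintain the resting state of lymphocytes. On activation by cytokines, lymphocytes enter the cell cycle and increase glycolysis, respiration, nucleotide synthesis and protein turnover, while genes of the resting state are turned down.

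The NK label was checked against marker genes. The 16 NK cell identity genes summed to 30046, 38735, 41887 and 30589 normalized CPM in control 1 to 4 and to 43993, 44190.2 and 37659.7 in RMA late 1 to 3, with Gzma, a granzyme, the most abundant. Of these genes 0 passed in edgeR in either direction, and 2 higher and 2 lower had an unadjusted p under 0.05. Ncr1, which encodes NKp46, was at 2951, 3641, 3679 and 3086 normalized CPM in the controls and at 3576, 3474 and 2381 in late RMA. The 9 markers of type 1 innate lymphoid cells, which share the sort markers of NK cells, summed to 43.2, 97.2, 94.7 and 231 normalized CPM in the controls and to 66.2, 59.9 and 53.1 in late RMA. Il7r was the most abundant of them summed over the controls, but carried by control 4, at 7.21, 22.8, 9.796 and 65.5 normalized CPM in control 1 to 4, and other markers of the list were above it in late RMA, where it was at 4.39, 7.91 and 7.67. The median log2 fold change of the 9 was −1.99, or −1.61 with the transcript length offset described below, from −2.31 to −0.55 over all alternatives, and 7 were negative. In edgeR 0 were called, with 0 higher and 2 lower at an unadjusted p under 0.05.

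Because RMA is a T cell line, T cell markers were examined as well. The 18 genes of that list summed to 949, 907, 879.5 and 923 normalized CPM in the controls and to 1226, 1082 and 988 in late RMA, so the groups did not overlap. Its most abundant gene was Cd247, which NK cells also express. Cd3e was at 0 in control 1 to 3 and at 4.9998 normalized CPM in control 4, and at 0, 0.558 and 0.210 in RMA late 1 to 3. Cd4 and Cd8a were at 0 in control 1 to 3 and RMA late 1 and 2, at 2.05 and 1.25 in control 4 and at 0.105 each in RMA late 3. Of the 14 genes tested 8 had a positive and 6 a negative log2 fold change, and 3 were higher in late RMA without overlap (Trbc1, Trbc2 and Thy1). In edgeR 0 were called, with 3 higher and 0 lower at an unadjusted p under 0.05. Trbc1 and Trbc2, constant segments of the T cell receptor beta chain, were at 276, 224, 281 and 264 and at 98.7, 103, 89.6 and 102 normalized CPM in the controls, and at 373, 344 and 325 and at 170.2, 123 and 113 in late RMA. Cd3g was at 4.25, 3.67, 3.58 and 14.4 normalized CPM in the controls and at 18.2, 14.7 and 14.3 in late RMA. Thy1 was at 24.2, 22.96, 11.7 and 24.999 in the controls and at 59.2, 59.7 and 45.6 in late RMA. Cd3d was at 6.47, 2.70, 1.26 and 14.7 in the controls and at 17.2, 8.47 and 5.04 in late RMA, with overlap. Trac was at 4.99, 6.94, 13.3 and 8.39 in the controls and at 16.2, 12.8 and 8.83 in late RMA, also with overlap. Cd28 and Trdc were not higher. Cd28 was at 169, 108, 60.5 and 93.9 in the controls and at 93.4, 88.7 and 64.3 in late RMA. For Trdc the values were 63.4, 55.3, 40.8 and 69.9 in the controls and 56.8, 48.5 and 43.8 in late RMA. The part of T cell or lymphoma RNA in the results was not tested, and the sort removed cells with CD3, CD5 or a T cell receptor on their surface. As in any bulk sample, fewer cells of a type and less RNA per cell cannot be told apart.

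Late RMA NK cells differed from control NK cells in both directions. Beside cell division and interferon genes, and in part shared with them, the raised side held genes of the proteasome, of serine and nucleotide synthesis, and of the actin and microtubule skeleton. The lowered side held single genes of sterol transport, quiescence, polycomb complexes and peroxisomes, and single nuclear noncoding RNAs. Of its 63 genes 48 belong to none of the gene lists used here. The medians of the sterol list and of the fatty acid oxidation and peroxisome list were positive, at 0.49 and 0.09. Mylip, an E3 ligase for the LDL receptor, went from 256 ± 65.5 (SD, n = 4) to 59.6 ± 15.9 (SD, n = 3) normalized CPM, and Ldha, the enzyme that makes lactate, from 502 ± 40.2 (SD, n = 4) to 1487 ± 455 (SD, n = 3) normalized CPM.

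In edgeR, 306 of 17097 genes tested (1.79%) were called, which takes an adjusted p below 0.05 together with a change of more than 2-fold. Of these 243 were higher (1.42%) and 63 were lower (0.368%) in late RMA, and 455 passed the adjusted p alone. The median log2 fold change was 1.78 among the higher and −1.40 among the lower genes, and 106 higher but 6 lower genes changed more than 4-fold. Fold changes are log2 values of late RMA over control, and all genes tested had a median of −0.18, against which single changes are to be read. Of the 17097 genes 6966 were positive and 10095 negative, and 1242 higher and 1156 lower had an unadjusted p under 0.05 in edgeR. Counts for the gene lists are to be read beside these. The 3 late RMA libraries lay above all 4 controls for 242 of the 243 higher genes and below them for 63 of the 63 lower genes. Over all genes tested, 9.24% lay above and 8.81% below without overlap, and the called genes were chosen on the same libraries.

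The lowered genes had more counts in control NK cells than the raised ones. Their median level went from 102 to 37.1 normalized CPM, against 28.3 to 120 for the raised genes and 8.56 to 8.08 for all genes tested. By annotation, 55 of the 63 lower genes code for proteins, 4 are pseudogenes and 4 are other noncoding genes, while 241 of the 243 higher genes code for proteins. Of the lower genes 48 belong to none of the gene lists used here, as do 118 of the higher genes.

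The balance between the directions moved with the libraries and the method. The lower genes numbered 10 without RMA late 1, 8 without RMA late 2 and 102 without RMA late 3, and 36 without control 1 and 36 without control 4. The higher genes numbered 151, 119, 355, 157 and 155 in the same 5 fits. The called genes were 79.4% higher ones, and this share was 93.8% without RMA late 1, 93.7% without RMA late 2, 60.7% with DESeq2's default settings, 65.5% with DESeq2's betaPrior, 64.5% with at least 10 counts in every library and 90.8% with a transcript length offset.

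**Figure D1:**
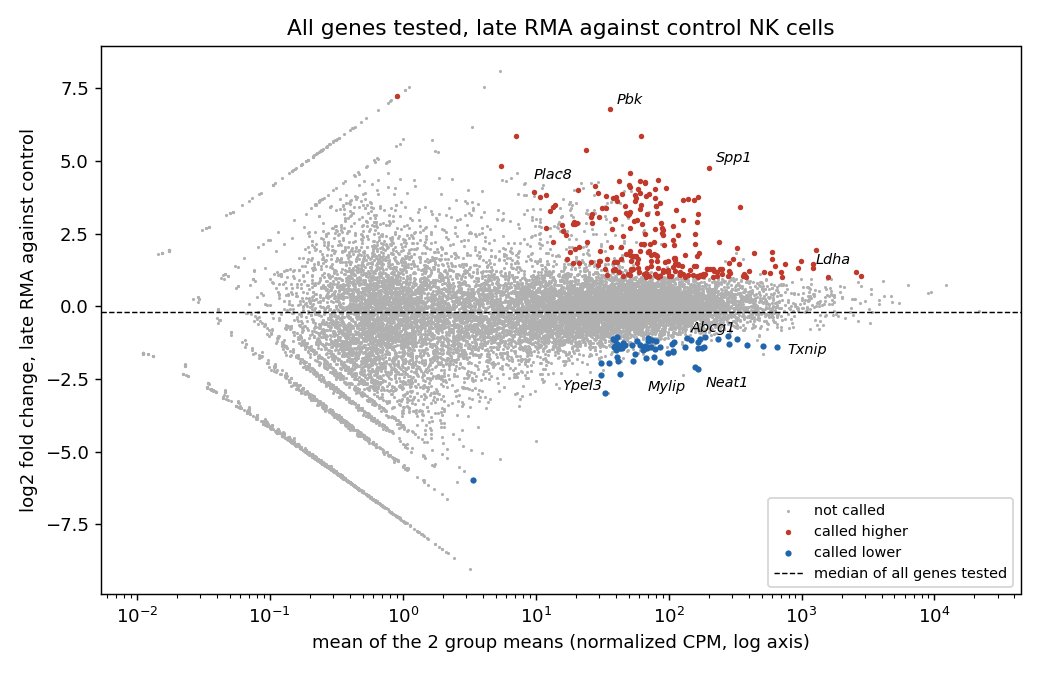
Log2 fold change of late RMA against control NK cells (vertical axis) by the mean of the group means in normalized CPM (horizontal log axis) for each of 17097 genes tested, with the 243 genes called higher and the 63 called lower in color. The median of all genes lies at −0.18.

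The libraries also differed by transcript length. In RMA late 1 and 2, the class with the longest transcripts, 1 of 5 equal classes, lay at a median of −0.85 and −0.56 log2 units from the control mean, and in RMA late 3 at −0.10. For control 1 to 4 this median was 0.17, −0.23, −0.20 and 0.23. Over the 5 length classes, from the shortest to the longest, the median log2 fold change was −0.03, −0.02, −0.15, −0.31 and −0.50. Median length was 1913.5 bases among the lower genes, 959.5 among the higher genes and 1504 among all genes tested. With a length offset for each library in the same fit, 306 genes were called, 278 higher and 28 lower, and the 28 lower genes were all among the original 63. The part of this length trend in single results was not tested further.

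**Figure D2:**
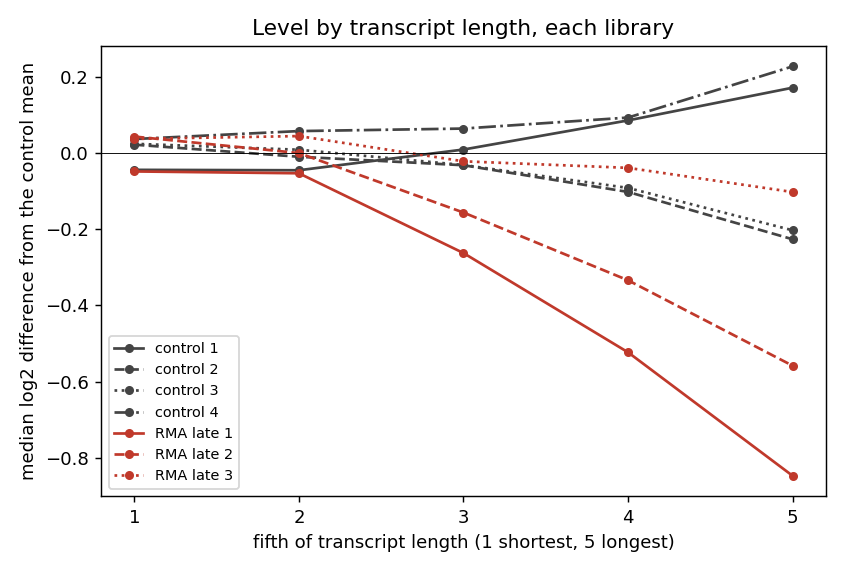
Median difference in log2 level from the mean of the 4 controls (vertical axis) in 5 equal classes of genes by transcript length, shortest to longest (horizontal axis), 1 line for each control and late RMA library. The longest class lies at −0.85 in RMA late 1 and −0.56 in RMA late 2, against −0.23 to 0.23 in the controls.

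Single genes of sterol and lipid transport were among the lowered ones. Mylip (chromosome 13, 45389742 to 45412022 on mm10), whose protein marks the LDL receptor for degradation, was measured at 188, 277, 222 and 338 normalized CPM in control 1 to 4 and at 45.0, 76.6 and 57.4 in RMA late 1 to 3. All late RMA libraries were below all controls, and the log2 fold change was −2.10 (adjusted p = 0.000288, SE 0.28). The Mylip call held in 15 of 15 alternatives, with adjusted p up to 0.00544. With the length offset its log2 fold change was −1.79. Abcg1 (chromosome 17, 31057675 to 31117988), which exports cholesterol from cells and is, like Mylip, a known target of the sterol-sensing LXR receptors, was at 148, 234, 162 and 227 normalized CPM in control 1 to 4 and at 67.6, 99.1 and 52.9 in RMA late 1 to 3. Its groups did not overlap either, with a log2 fold change of −1.40 (adjusted p = 0.00633, SE 0.28). The Abcg1 call was lost without RMA late 1 (adjusted p = 0.0507), within a range of adjusted p from 4.71e-05 to 0.0507 over all settings.

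Gramd1a, whose protein carries cholesterol from the plasma membrane to the endoplasmic reticulum, was at 924, 653, 637 and 742 normalized CPM in control 1 to 4 and at 213, 206 and 440.2 in RMA late 1 to 3. RMA late 3 was nearer to the controls than the other late libraries, and the log2 fold change was −1.37 (adjusted p = 0.00605, SE 0.27). The Gramd1a call was lost without RMA late 1 (adjusted p = 0.0698) and RMA late 2 (adjusted p = 0.0806), within a range of adjusted p from 9.08e-08 to 0.0806 over all settings. Abca7, a lipid transporter chosen after its values were seen, and Scd2, a fatty acid desaturase, had log2 fold changes of −1.55 for Abca7 (adjusted p = 0.0144) and −1.76 for Scd2 (adjusted p = 0.0180), without overlap. They passed in 11 of 15 and 12 of 15 alternatives, and with the length offset had an adjusted p of 0.106 and 0.150.

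The direction of the sterol list as a whole was the opposite. Of its 30 genes tested 0 were called higher and 2 lower (Abcg1 and Mylip), and 22 had a positive and 8 a negative log2 fold change. The median was 0.49, or 0.64 with the length offset, against −0.18 for all genes. Most members of this list are enzymes of cholesterol synthesis.

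Genes linked to quiescence and to FOXO factors made up the list with the most called lower members by number. By share it was not first, at 8% against 10% of the nuclear noncoding RNAs. Of 50 genes tested 4 were called lower (Klf2, Mylip, Txnip and Ypel3) and 1 higher (Slfn2), and 42 were negative. The median was −0.69, or −0.36 with the length offset. Lists share members, as Mylip is also in the sterol and ubiquitin ligase lists and Klf2 in the maturation and immediate early lists. Ypel3, a growth-restraining gene, was at 125, 52.5, 43.3 and 68.7 normalized CPM in control 1 to 4 and at 13.7, 14.3 and 15.2 in RMA late 1 to 3. The late RMA libraries sat close together below every control, and the log2 fold change was −2.32 (adjusted p = 0.00588, SE 0.46). The Ypel3 call was lost without RMA late 2 (adjusted p = 0.0509), within a range of adjusted p from 1.28e-05 to 0.0509 over all settings.

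Txnip, which binds thioredoxin and restrains glucose uptake, was at 649.6, 1057, 1121 and 939 normalized CPM in control 1 to 4 and at 211, 225 and 629.6 in RMA late 1 to 3. RMA late 3 lay just under the lowest control, and the log2 fold change was −1.41 (adjusted p = 0.0209, SE 0.34). The Txnip call was lost with a block by replicate number (adjusted p = 0.0641), without control 2 (adjusted p = 0.0524), control 3 (adjusted p = 0.0592), control 4 (adjusted p = 0.0511), RMA late 1 (adjusted p = 0.213), RMA late 2 (adjusted p = 0.205) and with the 2 groups alone (adjusted p = 0.0614), within a range of adjusted p from 6.45e-09 to 0.213 over all settings. Klf2, a transcription factor of lymphocyte quiescence and migration, was at 254, 219, 187 and 157 normalized CPM in control 1 to 4 and at 85.2, 93.9 and 97.1 in RMA late 1 to 3, without overlap. Its log2 fold change was −1.15 (adjusted p = 0.0126, SE 0.26). The Klf2 call was lost with a transcript length offset (adjusted p = 0.130), without control 1 (adjusted p = 0.0527), RMA late 1 (adjusted p = 0.105) and RMA late 2 (adjusted p = 0.0935), within a range of adjusted p from 0.000450 to 0.130 over all settings.

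Slfn2, a gene that keeps T cells quiescent, rose by 1.03 (adjusted p = 0.00633) and passed in 11 of 15 alternatives. Pnrc1, a nuclear receptor coregulator chosen for its level in control, was at 446, 212, 213 and 174 normalized CPM in control 1 to 4 and at 84.2, 73.7 and 128 in RMA late 1 to 3. Control 1 stood apart above the others, and the log2 fold change was −1.45 (adjusted p = 0.0117, SE 0.32). The Pnrc1 call was lost without control 1 (adjusted p = 0.0630), RMA late 1 (adjusted p = 0.104) and RMA late 2 (adjusted p = 0.121), within a range of adjusted p from 6.40e-05 to 0.121 over all settings.

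Promoters of 2 lowered quiescence genes are shown because they hold the letters TGTTTAC, which forkhead factors such as FOXO are known to bind. They are printed 5′ to 3′ in the direction of the gene, from RefSeq on GRCm38.p6 (mm10), with capitals at matches on either strand. The capitals also mark GATTGGC, the letters known for the factor NF-Y. Each window runs from 250 bases before to 50 after the gene start.
Ypel3 (chr7:126776713-126777012, plus strand): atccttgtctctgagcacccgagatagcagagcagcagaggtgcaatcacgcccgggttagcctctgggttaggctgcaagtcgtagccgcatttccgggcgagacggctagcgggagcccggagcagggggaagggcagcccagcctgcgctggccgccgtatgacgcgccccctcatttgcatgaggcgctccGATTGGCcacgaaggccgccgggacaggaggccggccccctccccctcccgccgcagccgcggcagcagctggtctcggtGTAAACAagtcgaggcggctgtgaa
Txnip (chr3:96557707-96558006, plus strand): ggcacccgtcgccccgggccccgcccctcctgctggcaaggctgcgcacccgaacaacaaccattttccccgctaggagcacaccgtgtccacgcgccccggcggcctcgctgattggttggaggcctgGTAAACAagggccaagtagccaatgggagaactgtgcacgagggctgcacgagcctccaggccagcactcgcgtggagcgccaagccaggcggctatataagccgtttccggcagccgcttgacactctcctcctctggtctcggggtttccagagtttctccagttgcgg
TGTTTAC was found in 3.65% of all 32851 promoters in the table, in 3.34% of those of tested genes and in 7 of the 45 quiescence genes with a promoter there (15.6%). Of the 42 called lower genes with a promoter, 4 held it (9.52%), and 7 of the 193 called higher genes (3.63%). Such a match is a description of the letters in the window.

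A gene of each polycomb complex was lowered. Phf1 (chromosome 17, 26933052 to 26937908), an accessory subunit of polycomb repressive complex 2, was at 61.7, 70.2, 60.6 and 70.3 normalized CPM in control 1 to 4 and at 15.3, 11.3 and 26.4 in RMA late 1 to 3. The controls lay within a narrow band above all late RMA libraries, and the log2 fold change was −1.90 (adjusted p = 0.00296, SE 0.35). The Phf1 call was lost without RMA late 2 (adjusted p = 0.0521), within a range of adjusted p from 2.18e-06 to 0.0521 over all settings. Cbx7, which reads methylated histone H3 in polycomb repressive complex 1, was at 108, 86.4, 90.9 and 136 normalized CPM in control 1 to 4 and at 23.8, 30.9 and 36.8 in RMA late 1 to 3, without overlap. The fitted log2 change was −1.79 (adjusted p = 0.00694, SE 0.37). The Cbx7 call was lost without RMA late 1 (adjusted p = 0.0811) and RMA late 2 (adjusted p = 0.0547), within a range of adjusted p from 6.08e-05 to 0.0811 over all settings.

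These 2 were the called members of the 36 polycomb genes tested, of which 0 were called higher and 15 were positive. The median was −0.23 and turned to 0.03 with the length offset, so the list had no stable direction. Among 31 histone lysine methylation enzymes 1 was called lower (Kdm7a, a demethylase) and 24 were negative, with a median of −0.48, or −0.37 with the length offset. Kdm7a had a log2 fold change of −1.17 (adjusted p = 0.0357), passed in 6 of 15 alternatives, and had an adjusted p of 0.732 with the length offset.

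Nuclear noncoding RNAs leaned lower in late RMA. Neat1 (chromosome 19, 5824708 to 5845478), the RNA scaffold of paraspeckles, was at 399, 157, 190.4 and 343 normalized CPM in control 1 to 4 and at 33.5, 42.9 and 108 in RMA late 1 to 3. RMA late 1 and 2 were lowest, and RMA late 3 was still under the lowest control, with a log2 fold change of −2.15 (adjusted p = 0.0110, SE 0.47). The Neat1 call was lost without RMA late 1 (adjusted p = 0.111) and RMA late 2 (adjusted p = 0.0962), within a range of adjusted p from 2.06e-11 to 0.111 over all settings. Peg13, an imprinted RNA, had a log2 fold change of −2.38 (adjusted p = 0.0316) and passed in 8 of 15 alternatives, with an adjusted p of 0.0503 under the length offset. Of 20 such RNAs tested 2 were called lower (Neat1 and Peg13), 18 were negative, and the median was −0.55, or −0.50 with the length offset. The list summed to 3031, 1309, 2079 and 1709 normalized CPM in the controls and to 759, 1002 and 1322 in late RMA, with Malat1 the most abundant in each control, and RMA late 3 lay just above control 2.

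**Figure D3:**
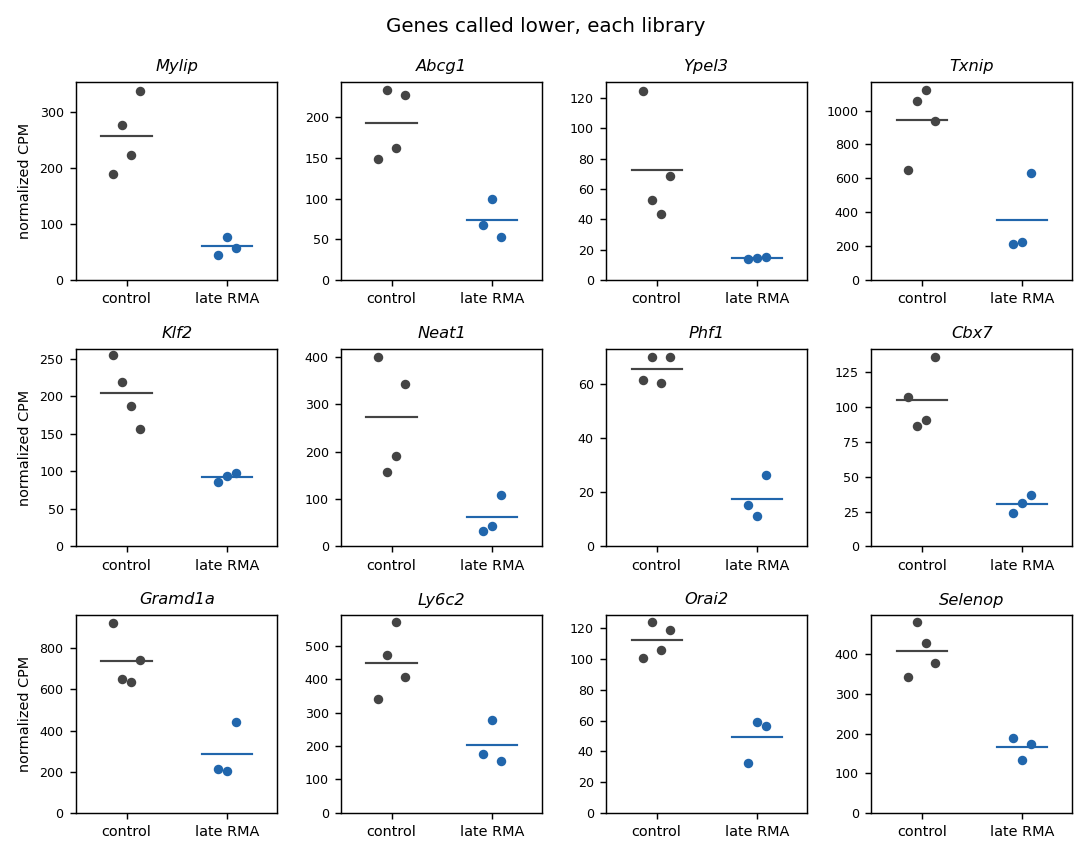
Normalized CPM (vertical axis, from 0) of 12 lowered genes in the 4 control and 3 late RMA libraries, 1 point for each library, with a bar at each group mean. For every gene the late RMA points lie below the control points.

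Some genes of peroxisomes were lowered, while lysosome genes had no common direction. Pex5, the import receptor of peroxisomes, was at 133, 174, 149 and 144 normalized CPM in control 1 to 4 and at 43.7, 52.7 and 86.5 in RMA late 1 to 3. Its groups did not overlap, and the log2 fold change was −1.30 (adjusted p = 0.0179, SE 0.30). The Pex5 call was lost with a transcript length offset (adjusted p = 0.181), without RMA late 1 (adjusted p = 0.184) and RMA late 2 (adjusted p = 0.153), within a range of adjusted p from 0.000556 to 0.184 over all settings. Pex6, an ATPase that recycles Pex5, and Mlycd, which breaks down the fatty acid oxidation inhibitor malonyl-CoA, had log2 fold changes of −1.95 for Pex6 (adjusted p = 0.0262) and −1.95 for Mlycd (adjusted p = 0.0315). They passed in 8 of 15 alternatives each, with adjusted p of 0.0659 and 0.0668 under the length offset. Over the 43 genes of fatty acid oxidation and peroxisomes 3 were called lower and 1 higher (Etfb, an electron carrier, at 1.23), and the median was 0.09, or 0.13 with the length offset. Of 54 autophagy and lysosome genes 1 was called lower (Atp13a2, a lysosomal pump, at −1.92) and 1 higher (Ctss, the protease cathepsin S, at 1.75), and 27 of the 54 were positive. Ctss passed in 15 of 15 alternatives and Atp13a2 in 7 of 15, with an adjusted p of 0.0550 under the offset.

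Single genes of calcium entry and of the response to calcium were chosen after their values were seen, and no list of such genes was counted. Orai2, a subunit of store-operated calcium channels, was at 101, 124, 106 and 119 normalized CPM in control 1 to 4 and at 32.1, 59.3 and 56.5 in RMA late 1 to 3, without overlap. On the log2 scale the change was −1.19 (adjusted p = 0.0257, SE 0.29). The Orai2 call was lost with a block by replicate number (adjusted p = 0.0814), with a transcript length offset (adjusted p = 0.252), without control 2 (adjusted p = 0.0616), control 4 (adjusted p = 0.0664), RMA late 1 (adjusted p = 0.263) and RMA late 2 (adjusted p = 0.0764), within a range of adjusted p from 0.00214 to 0.263 over all settings. Cracr2a, a regulator of these channels, and Nfatc2, the calcium-driven transcription factor NFAT1, had log2 fold changes of −1.33 for Cracr2a (adjusted p = 0.0223) and −1.25 for Nfatc2 (adjusted p = 0.0211). They passed in 9 of 15 alternatives each, with adjusted p of 0.0384 and 0.127 under the length offset.

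Other lowered genes had varied roles. Selenop, a selenium carrier protein, was at 343, 481, 428 and 377 normalized CPM in control 1 to 4 and at 187, 134 and 173 in RMA late 1 to 3, without overlap, and its log2 fold change was −1.30 (adjusted p = 0.00481, SE 0.25). The Selenop call was lost without RMA late 2 (adjusted p = 0.0747), within a range of adjusted p from 1.52e-05 to 0.0747 over all settings. Ly6c2, a surface protein of NK cells and monocytes with a near-identical neighbor gene, was at 341, 472, 570.4 and 406 normalized CPM in control 1 to 4 and at 176, 279 and 154 in RMA late 1 to 3, without overlap. Its log2 fold change was −1.14 (adjusted p = 0.0308, SE 0.29), and −1.16 with the length offset. The Ly6c2 call was lost with a transcript length offset (adjusted p = 0.0651), without control 2 (adjusted p = 0.0627), control 3 (adjusted p = 0.0897), control 4 (adjusted p = 0.0522), RMA late 1 (adjusted p = 0.203) and RMA late 3 (adjusted p = 0.168), within a range of adjusted p from 0.000250 to 0.203 over all settings.

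Further lowered genes that held in at least 13 alternatives were Med23, a Mediator subunit, at a log2 fold change of −1.76, Card6 at −1.65, Fam160b2 at −1.88, Ip6k1, an inositol phosphate kinase, at −1.61, Clcf1, a cytokine of the IL-6 family, at −1.49, and the pseudogene Pisd-ps1 at −1.41. Calls were lost without RMA late 1, where the adjusted p was 0.0802 for Card6, 0.0894 for Clcf1, 0.0692 for Fam160b2, 0.11 for Ip6k1 and 0.127 for Pisd-ps1. Without RMA late 2 it was 0.0817 for Card6, 0.0943 for Clcf1, 0.101 for Ip6k1, 0.1 for Med23 and 0.0962 for Pisd-ps1. Ip6k1 and Clcf1 were chosen after their values were seen. St5 and the adhesion gene Mcam, the latter also chosen so, had log2 fold changes of −2.98 and −1.43 and passed in 10 of 15 alternatives each.

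Genes of the TGF-beta pathway, a brake on NK cells, leaned lower without a called member. Of 29 tested 0 were called in edgeR in either direction, 0 higher and 2 lower had an unadjusted p under 0.05, and 25 were negative. Their median was −0.69, or −0.33 with the length offset, and their median transcript was long, at 2657.5 bases. Over all 17097 genes tested, 10095 were negative, and 1242 higher and 1156 lower had an unadjusted p under 0.05. Tgfbr2, the ligand-binding receptor, was at 290.0, 273, 238 and 273 normalized CPM in control 1 to 4 and at 135, 165 and 223 in RMA late 1 to 3. The groups did not overlap, and the log2 fold change was −0.62 (adjusted p = 0.104, SE 0.20), which did not pass and was −0.08 (adjusted p = 0.967) with the length offset. Smad3, a signal carrier of this pathway, had a log2 fold change of −0.39 (adjusted p = 0.565), with overlap.

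Of 22 clock genes 0 were called in edgeR, with 0 higher and 3 lower at an unadjusted p under 0.05. Their median was −0.70, or −0.51 with the length offset. The clock repressor Bhlhe40 was at 1104, 992, 1441 and 263 normalized CPM in control 1 to 4 and at 1271, 1130.5 and 1619.6 in RMA late 1 to 3, so control 4 stood apart. Control 4 was also low in the sum of 32 immediate early genes, which was 17926, 16962, 21579 and 4425 normalized CPM in the controls and 12990.3, 11061 and 16049 in late RMA. One of these was called, Klf2, and the median was −0.17, or 0.00 with the length offset. Of 24 p53 target genes 0 were called in edgeR, with 4 higher and 3 lower at an unadjusted p under 0.05, and Btg2, which restrains division, was at 1485, 1586, 2104 and 699.6 normalized CPM in control 1 to 4 and at 844, 680.1 and 1042 in RMA late 1 to 3, with overlap.

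NK receptors showed small differences as groups. Of 22 activating receptors and adaptors 0 were called in edgeR, with 2 higher and 2 lower at an unadjusted p under 0.05, and the median was 0.09, or 0.14 with the length offset. For 33 genes of receptor proximal signaling these counts were 0, 2 and 4, and the median moved from −0.24 to 0.06 with the offset. Rasal3, a Ras GTPase activator of lymphocytes, was at 664, 819, 893 and 786 normalized CPM in control 1 to 4 and at 428, 507 and 607 in RMA late 1 to 3. The groups did not overlap, and the log2 fold change of −0.62 (adjusted p = 0.0723, SE 0.18) did not pass, and with the length offset it was −0.39.

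Of 31 inhibitory receptors 3 were called higher (Klra7, Klrg1 and Tigit), with a median of 0.06, or 0.24 with the length offset. Klra7, an inhibitory receptor gene of the Ly49 family, whose members share much of their sequence, was at 623, 710.1, 903 and 555 normalized CPM in control 1 to 4 and at 1883, 1812 and 1495 in RMA late 1 to 3. Every late RMA library was above every control, and the log2 fold change was 1.31 (adjusted p = 0.00103, SE 0.21). The Klra7 call held in 15 of 15 alternatives, with adjusted p up to 0.00971. Klrg1, a marker of mature NK cells, rose by 1.18 (adjusted p = 0.0489) and passed in 7 of 15 alternatives. Among 36 cytokine receptor and STAT genes 1 was called (Pim2, a survival kinase, at 1.25), and the median moved from −0.32 to 0.07 with the length offset. Of 19 TNF receptor genes 1 was called, Tnfrsf9 (4-1BB) at 1.85, with a list median of −0.37, or −0.15 with the offset.

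Maturation factors changed in single genes. Eomes, a T-box factor of NK cells, was at 388, 263, 255 and 319 normalized CPM in control 1 to 4 and at 173, 181 and 192 in RMA late 1 to 3, without overlap. The fitted log2 change was −0.75 (adjusted p = 0.0352, SE 0.19), short of the fold threshold, and with the length offset it was −0.35 (adjusted p = 0.572). Tbx21, which encodes the related T-bet, had a log2 fold change of −0.45 (adjusted p = 0.276), with overlap. Of 37 maturation genes 2 were called higher (Irf8 and Klrg1) and 1 lower (Klf2), and the median moved from −0.05 to 0.25 with the length offset. Of 20 trafficking receptors 0 were called in edgeR, with 2 higher and 3 lower at an unadjusted p under 0.05, and of 25 integrins also 0, with 2 and 4.

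Genes of killing and its self-protection leaned higher. Of 21 cytotoxic genes 2 were called higher, Serpinb6b and Gzmb, and the median was 0.35, or 0.42 with the length offset. Gzmb rose by 1.18 and passed in 8 of 15 alternatives. With the length offset its log2 fold change was 1.26, at an adjusted p of 0.0640. Serpinb6b, a protease inhibitor of the serpin family, was at 569, 539.7, 613 and 442 normalized CPM in control 1 to 4 and at 1382, 1223 and 1399 in RMA late 1 to 3, without overlap. On the log2 scale the change was 1.30 (adjusted p = 0.000773, SE 0.20). The Serpinb6b call held in 15 of 15 alternatives, with adjusted p up to 0.00851. The related Serpinb9b, chosen after its values were seen, rose by 1.86 (adjusted p = 0.0119) and passed in 12 of 15 alternatives. Gzma was at 7779, 10651, 12409.5 and 6066 normalized CPM in the controls and at 16390.3, 16442 and 12806 in late RMA, and its log2 fold change of 0.72 (adjusted p = 0.255, SE 0.29) did not pass.

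Energy metabolism was raised in parts. Ldha (chromosome 7, 46841475 to 46855627), which turns pyruvate into lactate, was at 457, 482, 526 and 544 normalized CPM in control 1 to 4 and at 1844, 1643 and 975 in RMA late 1 to 3. All late RMA libraries were above all controls, RMA late 3 least, and the log2 fold change was 1.57 (adjusted p = 0.000134, SE 0.18). The Ldha call held in 15 of 15 alternatives, with adjusted p up to 0.00245. Ldha was the called member of 28 genes of glycolysis and the pentose phosphate pathway, of which 20 were positive, with a median of 0.45, or 0.49 with the length offset.

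Nuclear genes of oxidative phosphorylation leaned higher as a group. Of 80 tested 73 were positive and 3 were called higher (Atp5o, Sdhd and Uqcr10), with a median of 0.66, or 0.68 with the length offset. They summed to 7225, 9605, 8959 and 8212 normalized CPM in the controls and to 13166, 13653 and 10273 in late RMA. Atp5o, a subunit of ATP synthase, rose by 1.13 (adjusted p = 0.00401) and passed in 14 of 15 alternatives. The 8 mitochondrially encoded messenger RNAs had a median of −0.13, which turned to 0.05 with the length offset. In edgeR 0 of them were called, with 1 higher and 1 lower at an unadjusted p under 0.05. Of 77 mitochondrial ribosomal protein genes 71 were positive, with a median of 0.49, or 0.53 with the offset, and 1 called (Mrpl20 at 1.26). Of 82 cytosolic ones 38 were positive, with a median of −0.09 and 1 called (Rps27l, which passed in 5 of 15 alternatives).

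Proteasome genes leaned higher almost throughout. Of 47 genes tested 46 were positive and 7 were called higher (Psma1, Psma4, Psma7, Psmb2, Psmb4, Psmb6 and Psme2), and the median was 0.80, or 0.87 with the length offset. Psma7 (chromosome 2, 180036374 to 180042433), a subunit of its core, was at 116, 140.1, 159 and 153 normalized CPM in control 1 to 4 and at 408, 399 and 241 in RMA late 1 to 3. The groups did not overlap, and the log2 fold change was 1.30 (adjusted p = 0.00258, SE 0.23). The Psma7 call held in 15 of 15 alternatives, with adjusted p up to 0.0218. The list summed to 4935, 6442, 6507 and 5645 normalized CPM in the controls and to 11057, 10976 and 8138 in late RMA. By comparison 0 of 28 genes of the unfolded protein response were called in edgeR, with 5 higher and 2 lower at an unadjusted p under 0.05, and 0 of 24 heat shock genes, with 8 and 1.

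**Figure D4:**
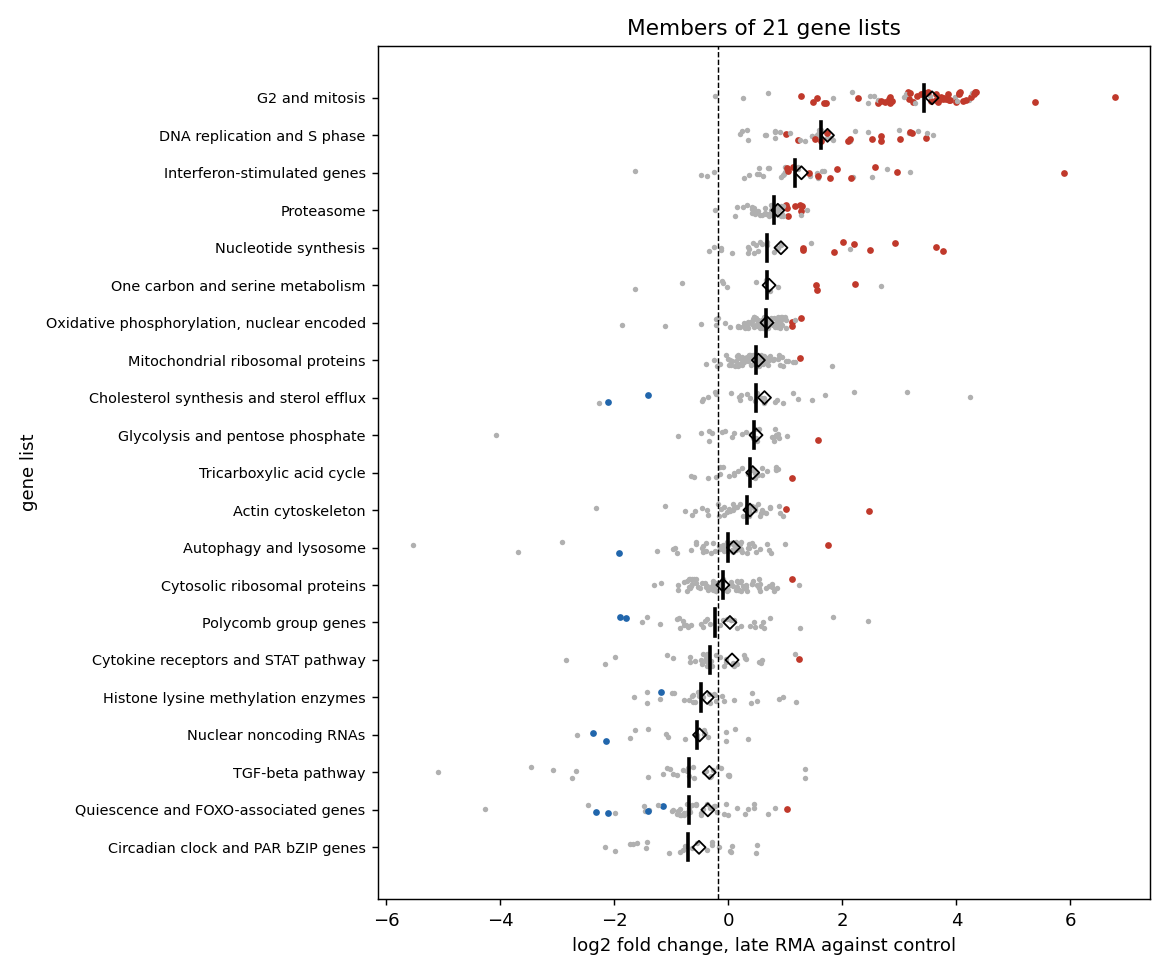
Log2 fold change of late RMA against control (horizontal axis) of each tested member of 21 gene lists (vertical axis), with members called higher in red and called lower in blue. Black bars mark list medians, open diamonds the medians with the length offset, and the dashed line the median of all genes at −0.18. The medians of the polycomb, cytokine receptor and autophagy lists change sign with the offset.

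Genes of nucleotide and serine synthesis were raised in part. Of 30 nucleotide synthesis genes 9 were called higher, with a median of 0.69, or 0.92 with the length offset. Rrm2, a ribonucleotide reductase subunit, rose by 3.65 (adjusted p = 0.000442), and Tyms, thymidylate synthase, by 2.92 (adjusted p = 0.00257), and both passed in 15 of 15 alternatives. Of 14 one-carbon and serine genes 3 were called higher (Mthfd2, Phgdh and Psat1), with a median of 0.68, or 0.72 with the length offset. Psat1, of serine synthesis, was at 49.5, 41.7, 63.1 and 47.8 normalized CPM in control 1 to 4 and at 161, 165 and 121 in RMA late 1 to 3, without overlap. Its log2 fold change was 1.56 (adjusted p = 0.00401, SE 0.30). The Psat1 call held in 15 of 15 alternatives, with adjusted p up to 0.0240.

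Redox genes were chosen after their values were seen. Txn1, thioredoxin, was at 44.7, 90.7, 94.0 and 67.6 normalized CPM in control 1 to 4 and at 276, 332 and 190.0 in RMA late 1 to 3. Every late RMA library was above every control, while Txnip, its inhibitor, lay below, and the log2 fold change was 1.84 (adjusted p = 0.000288, SE 0.25). The Txn1 call held in 15 of 15 alternatives, with adjusted p up to 0.00433. Prdx1, a peroxidase that thioredoxin recharges, and Cyba, a subunit of the phagocyte NADPH oxidase, rose by 1.40 and 1.17 and passed in 15 of 15 alternatives each.

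The cytoskeleton and its binding proteins were raised in single genes. Capg, which caps actin filaments, was at 41.6, 57.8, 59.5 and 34.6 normalized CPM in control 1 to 4 and at 353, 223 and 232 in RMA late 1 to 3, without overlap. The fitted log2 change was 2.47 (adjusted p = 0.000244, SE 0.33). The Capg call held in 15 of 15 alternatives, with adjusted p up to 0.00277. Of 46 actin genes Capg and Cfl1 were called higher, with a median of 0.33, or 0.38 with the length offset. Of 25 microtubule genes 4 were called higher, among them Tubb5, a tubulin, at 1.93 and Stmn1, which destabilizes microtubules and is also in the G2 and mitosis list, at 2.84.

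Single genes of galectins and of small calcium-binding proteins were also raised. They were chosen after their values were seen, and no list of these families was counted. Lgals3, which encodes galectin-3, was at 24.8, 33.3, 28.9 and 22.6 normalized CPM in control 1 to 4 and at 158, 121 and 104 in RMA late 1 to 3. The groups lay far apart, and the log2 fold change was 2.22 (adjusted p = 0.000164, SE 0.28). The Lgals3 call held in 15 of 15 alternatives, with adjusted p up to 0.00250. Lgals1 and S100a4 rose by 1.44 and 2.05 and passed in 15 of 15 alternatives each. S100a6 and Anxa2 rose by 1.11 and 1.03 and passed in 10 of 15 alternatives each. Car2, a carbonic anhydrase that is also in the red blood cell list, was at 469, 348, 302 and 333 normalized CPM in control 1 to 4 and at 903, 842 and 663 in RMA late 1 to 3, without overlap, with a log2 fold change of 1.15 (adjusted p = 0.00213, SE 0.20). In that list Hbb-bs, a hemoglobin gene, was at 0.185, 0, 0.316 and 0.268 normalized CPM in the controls and at 1.72, 0.465 and 0.525 in late RMA.

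Cell division and interferon genes were raised as well. Of 65 genes of G2 and mitosis 47 were called higher and 0 lower, with a median of 3.43, and of 46 genes of DNA replication 14 were called higher, with a median of 1.62. Many of these calls were lost without RMA late 2, among them Aurkb, Ccnf, Mki67, Cdc45, Mcm7 and Uhrf1. These 6 did not depend on that library alone. Removing RMA late 1, control 2, control 3 or control 4, 1 at a time, also cost each of them its call. Mki67 lost its call whichever of the 7 libraries was removed, and passed in 6 of 14 alternatives. Other calls, such as Birc5, Top2a and Mcm6, held in all alternatives. Of 34 genes of DNA repair 4 were called higher, with a median of 1.16. Of 40 interferon-stimulated genes 11 were called higher, with a median of 1.18, and 4 of 20 guanylate-binding and related GTPases, with a median of 0.61. All these medians kept their sign with the length offset.

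A member of each is shown with its promoter, from the same source and written in the same way. Capitals mark TTTGAA, the core of the cell cycle homology region, and GATTGGC in Cdk1, the kinase of mitotic entry, and GAAANNGAA, the core of the interferon response element, in Ifit3, an antiviral gene.
Cdk1 (chr10:69352863-69353162, minus strand): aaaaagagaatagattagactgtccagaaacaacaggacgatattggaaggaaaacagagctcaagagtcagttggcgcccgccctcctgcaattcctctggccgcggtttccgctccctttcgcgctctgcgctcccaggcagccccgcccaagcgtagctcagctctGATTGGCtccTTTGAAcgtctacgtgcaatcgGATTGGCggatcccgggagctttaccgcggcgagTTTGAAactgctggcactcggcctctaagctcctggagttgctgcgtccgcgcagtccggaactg
Ifit3 (chr19:34583279-34583578, plus strand): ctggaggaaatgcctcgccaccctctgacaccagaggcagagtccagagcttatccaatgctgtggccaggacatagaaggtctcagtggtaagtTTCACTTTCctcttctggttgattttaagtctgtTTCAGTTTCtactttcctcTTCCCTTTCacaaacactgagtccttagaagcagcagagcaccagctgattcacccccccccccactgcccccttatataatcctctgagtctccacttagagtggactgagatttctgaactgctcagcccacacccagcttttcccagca
TTTGAA was found in 17.9% and GATTGGC in 6.83% of all promoters, in 15.7% and 11.4% of the 11428 tested genes with a promoter, and in 37 and 19 of the 53 G2 and mitosis genes with a promoter. Among called higher genes 67 of 193 held TTTGAA (34.7%) and 42 held GATTGGC (21.8%), and among called lower genes 7 of 42 held TTTGAA (16.7%) and 5 GATTGGC (11.9%). GATTGGC was also in 11 of the 45 quiescence genes (24.4%). GAAANNGAA was found in 8.56% of all promoters, in 8.98% of those of tested genes and in 17 of 29 interferon-stimulated genes. Cdk1 was at 9.06, 8.78, 12.5 and 5.54 normalized CPM in control 1 to 4 and at 136, 227 and 81.0 in RMA late 1 to 3, without overlap, with a log2 fold change of 4.04 (adjusted p = 0.00682, SE 0.82). The Cdk1 call held in 14 of 14 alternatives, with adjusted p up to 0.0436. Ifit3 was at 2.96, 2.31, 6.21 and 6.70 normalized CPM in control 1 to 4 and at 28.0, 36.2 and 17.8 in RMA late 1 to 3, without overlap, with a log2 fold change of 2.58 (adjusted p = 0.0458, SE 0.70), and passed in 7 of 14 alternatives.

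Part of the change was already present at day 4 after RMA injection. Mylip, Txnip, Ypel3, Neat1, Phf1 and Cbx7 had each been called lower against control at day 4, and Ldha higher. These comparisons share the controls, so the values at day 4 are given for each of these genes. Between late RMA and RMA intermediate (day 4, n = 3), 0 genes passed in edgeR (0.00%), with 763 at an unadjusted p under 0.05, while DESeq2 called 29 with default settings and 0 with betaPrior. With no filter on low counts edgeR called 10. Against RMA early (day 2, n = 3), 253 genes were higher (1.48%) and 91 lower (0.532%) in late RMA. The missed threshold between day 4 and day 9 does not show that the values were equal.

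Mylip was at 241, 206 and 166 normalized CPM at day 2 and at 102, 94.6 and 92.4 at day 4. Its log2 fold change against control was −0.33 (adjusted p = 0.830) at day 2 and −1.41 (adjusted p = 0.00576) at day 4, against −2.10 at day 9. Neat1 was at 658, 362 and 342 at day 2 and at 50.3, 59.4 and 45.3 at day 4, and its log2 fold change against control was −2.40 (adjusted p = 0.00622) at day 4. For Neat1, the day 2 libraries lay within or above the range of the controls and the day 4 libraries within that of late RMA. Txnip was at 1145, 506 and 644 at day 2 and at 308, 264 and 267 at day 4, with −1.75 (adjusted p = 0.00573) at day 4. At day 4 Ypel3 was at 18.2, 9.22 and 16.5 normalized CPM, Phf1 at 21.3, 22.7 and 24.6, Cbx7 at 19.1, 24.8 and 35.6 and Ldha at 1234, 1450.1 and 1301.

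Abcg1 and Klf2 had not passed at day 4. Abcg1 was at 111, 154 and 109 at day 4, with a log2 fold change of −0.63 (adjusted p = 0.282), and Klf2 at 151, 104 and 137, with −0.64 (adjusted p = 0.232). Late RMA against day 4 gave −0.77 (adjusted p = 0.901) for Abcg1 and −0.51 (adjusted p = 0.901) for Klf2, so neither difference passed. Of the raised genes, Ldha had 1.40 (adjusted p = 0.000176) at day 4, and Psma7 0.80 (adjusted p = 0.0741), which did not pass, and the difference between late RMA and day 4 for Psma7 was 0.50 (adjusted p = 0.901).

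**Figure D5:**
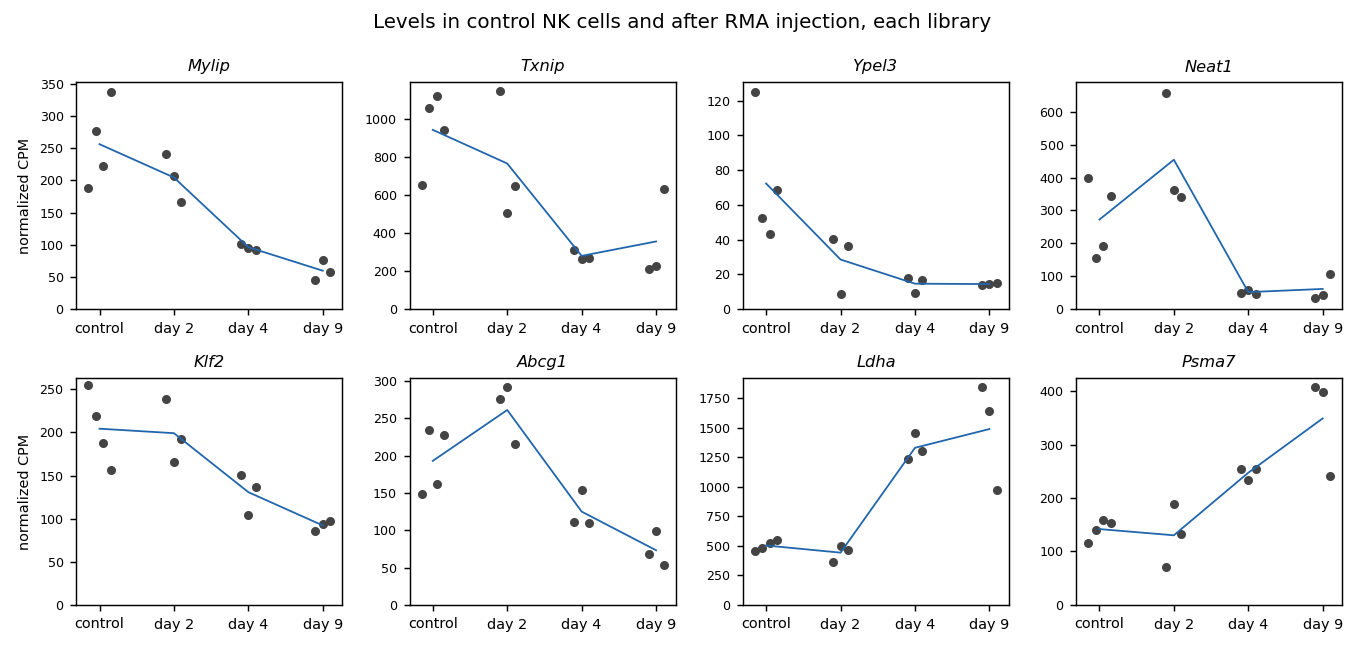
Normalized CPM (vertical axis, from 0) of 8 genes in control, day 2, day 4 and day 9 RMA libraries (horizontal axis), 1 point for each library and a line through the group means. Mylip, Txnip, Ypel3 and Neat1 passed as lower at day 4, Klf2 and Abcg1 at day 9 alone, though the difference between these days did not pass for either.

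RMA-KR, an RMA derivative without B2m that carries the NKG2D ligand Rae1-β, gave late NK cells at day 14, so tumor and day cannot be told apart. Between late RMA and late RMA-KR (n = 3 each) 0 genes passed in edgeR, with 1249 at an unadjusted p under 0.05, while DESeq2 called 42 with default settings and 10 with betaPrior, and edgeR 28 with no filter on low counts. Ypel3 was at 33.6, 36.8 and 50.0 normalized CPM in late RMA-KR, and the difference was −1.48 (adjusted p = 0.655, SE 0.47). Mylip was at 76.8, 78.7 and 137, with −0.71 (adjusted p = 0.655, SE 0.29), and Abcg1 at 89.3, 133 and 145, with −0.74 (adjusted p = 0.655, SE 0.29). Proteasome genes had a median of 0.49 between the tumors and quiescence genes −0.31, against 0.06 over all genes.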

How the data were processed

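The values are counts of reads per gene, which the authors deposited as raw whole numbers for 45237 genes in a table of 112 columns. Of these, 24 hold the counts used here. The authors' comparison columns, with log2 fold changes, p and adjusted p, and 48 further columns per library were left out. According to the submitters' processing notes, reads were trimmed with cutadapt 1.10, cleared of ribosomal RNA with Bowtie2 2.2.8, aligned to mm10 with STAR 2.5.3a and counted with HTSeq 0.6.1p1, and compared with DESeq2 1.16.1.

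Groups were taken from the sample labels. In R 4.3.3, edgeR 4.0.16 with limma 3.58.1 kept 17097 genes with filterByExpr on the 7 groups, scaled them with TMM, fitted 1 mean per group to all 24 libraries with robust dispersions, and tested each contrast with the 2-sided quasi-likelihood test and Benjamini-Hochberg adjustment. An SE is the size of the log2 fold change over the root of F. Called means a change above 2-fold with an adjusted p under 0.05. The procedure was tested on simulated data.

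Named genes are the 15 highest and 15 lowest log2 fold changes among called genes without overlap, the 10 called lower genes with the highest control level, called members of the gene lists, NK cell identity genes, and the 2 most abundant members of described lists without a call. Others are said to be chosen after their values were seen. Members and lists were chosen with earlier results of these data known, and lists are described by counts and medians without a test. Transcript lengths come from the deposited table.

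Alternatives were DESeq2 size factors in edgeR, DESeq2 1.42.0 with default settings and with betaPrior, leaving out each library, only the 7 libraries compared, a replicate block made from the replicate numbers, a minimum of 10 counts in all libraries, no filter on low counts, and a transcript length offset.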

Additional observations from a re-analysis of the deposited data

Results flagged for a closer look

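Of 103 genes examined library by library, 6 had 1 control library far from the other 3, by a gap that chance gives in about 1 of 20 groups, so about as many would be expected by chance. Arhgap4 was at 506 normalized CPM in control 4, with the others from 325 to 344. Atp5o was at 31.6 in control 1, with the others from 43.2 to 45.3. Birc5 was at 24.6 in control 1, with the others from 5.18 to 8.43. Ifi27l2a was at 6.00 in control 3, with the others from 0.625 to 0.772. Pnrc1 was at 446 in control 1, with the others from 174 to 213. Top2a was at 103 in control 1, with the others from 41.8 to 45.6. The causes were not tested.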

How the results depend on the processing

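Counts of called genes depended on the method and on single libraries more than the directions did. With DESeq2's default settings 601 genes were called (365 higher, 236 lower), and with betaPrior 472 (163 lower). With no filter on low counts 472 genes were called (129 lower), with at least 10 counts in every library 134 lower genes, and with the 2 groups alone 573 (424 higher, 149 lower). A replicate block gave 210 genes (170 higher, 40 lower), although libraries with the same number were not alike, with correlations of residuals from −0.118 to 0.033. The transcript length offset, chosen after seeing the data, gave 28 lower genes and moved the median of all genes from −0.18 to −0.02, and betaPrior moved it to −0.06. Leaving out 1 library at a time gave from 127 to 457 called genes, from 119 to 355 higher genes and from 8 to 102 lower genes. Between late RMA and day 4, DESeq2's default settings called 29 genes and no filter on low counts 10. The causes were not tested.

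Over 201 genes and all alternatives, 2416 of 2975 values kept their direction and side of the threshold, 558 no longer passed, 1 newly passed and 0 reversed. Of 806 list medians 698 moved by less than the spread between libraries. Of 806 list counts 209 moved and 597 were rated as the same. Depth limits genes such as Hist1h3g, at 0 counts in all controls and 59 over late RMA, which was at least 5.09-fold higher against a floor of 3 counts per library and whose call passed in 1 of 11 alternatives.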

Other observations

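Single genes outside the gene groups above were examined too. Ripk3, the necroptosis kinase, was at 52.3, 57.3, 45.3 and 44.2 normalized CPM in control 1 to 4 and at 96.1, 99.5 and 126 in RMA late 1 to 3, without overlap. It rose by 1.11 (SE 0.26, adjusted p = 0.0193) and passed in 9 of 15 alternatives. Gimap7, a GTPase of lymphocytes, was at 136, 158, 169.7 and 135 normalized CPM in control 1 to 4 and at 532, 488 and 367 in RMA late 1 to 3, without overlap, with a log2 fold change of 1.63 (adjusted p = 0.000697, SE 0.25). The Gimap7 call held in 15 of 15 alternatives, with adjusted p up to 0.00740. Ripk3 and Gimap7 were chosen after their values were seen. Plac8 was at 3.51, 2.80, 3.27 and 2.4999 normalized CPM in control 1 to 4 and at 51.6, 61.5 and 45.7 in RMA late 1 to 3, and its log2 fold change was 4.13 (adjusted p = 0.00213, SE 0.72). The Plac8 call held in 15 of 15 alternatives, with adjusted p up to 0.0156.

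Of 22 genes of MHC class I and peptide loading 19 were positive and 1 was called higher (Psme2), with a median of 0.49, or 0.49 with the length offset. Ribosome biogenesis genes had 32 of 40 positive and 1 called (Nhp2), with a median of 0.23, or 0.36. Of 26 genes of the tricarboxylic acid cycle 1 was called (Sdhd), with a median of 0.38, or 0.43. For 41 genes of mTORC1 and nutrient sensing 0 were called in edgeR, with 4 higher and 5 lower at an unadjusted p under 0.05, and the median of −0.02 turned to 0.11 with the offset. Of 29 lymphocyte ubiquitin ligases 1 was called higher (Fbxo5) and 1 lower (Mylip), with a median of −0.22, or −0.04.

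Among markers of other cells, 14 granulocyte genes summed to 1.85, 0.193, 0.527 and 4.37 normalized CPM in the controls and to 0.0860, 17.4 and 0.420 in late RMA, where RMA late 2 stood apart. In the same order of libraries, B cell markers summed to 299, 340.1, 253 and 481 in the controls and to 409, 349 and 348, mostly Ighm, and dendritic cell markers to 683, 424, 481 and 640.2 in the controls and to 829, 742 and 1046, mostly Itgax. Macrophage and monocyte markers summed to 1529, 1576, 1527 and 1463 in the controls and to 1828, 1689 and 1486, mostly Ccr2, with Fcgr1 at 0 in all 7 libraries. In this list Ly6c2 was lowered, while Cd68 was at 15.9, 11.3, 8.74 and 8.66 normalized CPM in the controls and at 28.1, 24.8 and 47.8 in late RMA, without overlap, and Lyz2 at 2.22, 0, 0 and 0.268 in the controls and at 5.50, 8.37 and 1.79 in late RMA, with overlap. Ctss, Capg, Cyba and Lgals3, which were raised, are expressed by such cells as well. Plasma cell markers summed to 281, 344, 410.5 and 356 in the controls and to 390.1, 472 and 349, mostly Xbp1, and platelet markers to 1.85, 3.38, 2.63 and 3.48 in the controls and to 8.08, 6.42 and 14.3. Their part in the results was not tested.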
